A study of Mus musculus with 8 samples.

Results

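Rbfox3 cells were 933 cells chosen by their measured level of Rbfox3, a deposited log2 value of at least 1, and taken from the 21220 cells of 6 libraries of mouse hippocampal cultures on days 2, 4 and 8 of differentiation. The whole series held 30408 cells in 8 libraries. Each library was its own control, and the comparison was made with the 19891 cells of the same 6 libraries in which Rbfox3 was at 0. Another 396 cells had a value above 0 and under 1 and belonged to neither class.

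Neural stem and progenitor cells were isolated from the microdissected dentate gyrus of embryos, at embryonic day 18 by the labels, while the study's methods name another day. Kmt2d+/βgeo males, which carry the gene-trap allele Mll2Gt(RRt024)Byg of the histone methyltransferase Kmt2d, had been mated to C57BL/6J females, and cells of Kmt2d+/βgeo embryos were compared with cells of wild-type littermates, whose strain label is C57BL/6J. All cultures were expanded with EGF and FGF2 and were sampled on day 0 or on days 2, 4 and 8 after both growth factors had been removed, by droplet single-cell RNA sequencing of 3′ ends with unique molecular identifiers (UMIs, each marking 1 captured RNA molecule). There was 1 library per genotype and day, so that a genotype cannot be told apart from a culture or a run, and the labels do not say how many embryos went into a culture.

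Rbfox3 encodes NeuN, an RNA-binding protein of the Rbfox family that regulates alternative splicing and is widely used as a nuclear marker of maturing and mature neurons. In the dentate gyrus, progenitors with glial gene programmes give rise to neuroblasts and then to granule neurons, which express the transcription factor Prox1 and take up neuronal cytoskeletal and synaptic proteins. Progenitor cultures can also yield astrocytes, which clear glutamate through Slc1a2 and Slc1a3 and convert it with glutamine synthetase, Glul. On GRCm38, Rbfox3 (ENSMUSG00000025576) lies on the reverse strand at chr11:118489762-118911597, and annotated noncoding RNAs (Gm11749, Gm25040 and, on the opposite strand, Gm11750) overlap it. Reads shared with an overlapping RNA of the same strand could make the count uncertain, and the sources used here do not say whether counting used strand, although the kit keeps it.

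The working name for these cells was neuron-like, a name that their markers bore out only in part. Most Rbfox3 cells rested on 1 molecule of Rbfox3 RNA: 730 of the 933 cells (78.2%) carried fewer than 1.5 recovered UMIs of the gene, and the highest estimate was 4.67. The proportion resting on 1 molecule ran from 63.3% in the day 4 Kmt2d+/βgeo library to 93.9% in the day 8 Kmt2d+/βgeo library. Of 35 listed neuron markers only 16, Rbfox3 included, were in the matrix. Common ones such as Tubb3, Dcx and Stmn2 were absent and could not be examined. Among 15 other neuron markers in the matrix, 9 passed the filter on low values and 6 of these were higher in Rbfox3 cells, as given below. The other 6 markers, Syn1, Elavl3, Celf4, Gng3, Eno2 and Scn2a, did not reach a mean of 0.1 normalised counts over all cells. Elavl3, an RNA-binding protein of postmitotic neurons, had means of 0 to 0.106 normalised counts per Rbfox3 cell across the 6 libraries and of 0.0166 to 0.0426 per Rbfox3-zero cell, and the Rbfox3 cells were the higher in every library but that of day 8 Kmt2d+/βgeo. The synaptic vesicle protein gene Syn1 had means of 0 to 0.0665 in Rbfox3 cells and of 0.0179 to 0.0439 in Rbfox3-zero cells. At the same time Rbfox3 cells carried 87.2 to 213 normalised counts of Apoe per cell and 43.4 to 78.4 of Vim, both glial and progenitor transcripts. Rbfox3-zero cells carried 94.6 to 251 and 43.7 to 86.8. These 2 abundant transcripts do not stand for their lists. Of 10 astrocyte genes tested, 9 were lower in Rbfox3 cells, Apoe among them, where 6.23% of all genes were lower. Progenitor markers were split, as given below. Of 11 listed oligodendrocyte lineage genes 3 were in the matrix, and all 3 were higher in Rbfox3 cells, where 6.56% of all genes tested were. With depth standardised 1 of them, Olig2, was still called higher, where 3.61% of all genes were. The cells are therefore called Rbfox3 cells here and given no cell type.

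The rule and sequencing depth were tied together. The normalised counts, obtained as 2 to the power of the deposited value minus 1, summed to 8707.1 in each cell, so a single Rbfox3 UMI reached the rule only in a cell with at most that many UMIs on the matrix genes. The lowest value among Rbfox3 cells was 1.0008 and the highest below the rule was 0.9989. There were 196 Rbfox3 cells with a value between 1 and 1.1, with a median of 8170 UMIs, and 146 cells with a value from 0.9 up to 1, with a median of 9202 UMIs. Rbfox3 cells had fewer UMIs than Rbfox3-zero cells in 6 of 6 libraries, with medians of 3844 to 8015 against 3976 to 8976. The mean log2 difference of the medians was -0.14 ± 0.06 (SD, n = 6 libraries), a description with no test because the rule itself favours shallower cells. For all cells with any Rbfox3 value above 0 it was -0.06 ± 0.05, lower in 5 of 6 libraries. For this reason the gene lists and most genes below are also given depth-standardised. There, Rbfox3-zero cells were reweighted over quintiles of the depth of the Rbfox3 cells of their library. The outer quintiles had no outer limit, so depth was matched only in part.

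Cells that met the Rbfox3 rule made up a few percent of each library of days 2, 4 and 8, most on day 4. These are shares of detection, and a Rbfox3-zero cell may hold RNA of the gene that was not captured. By the rule they were 1.98% of cells in the day 2 Kmt2d+/βgeo library (97 of 4900) and 2.68% in the day 2 wild-type library (110 of 4098). On day 4 they were 7.85% (199 of 2534) and 9.09% (319 of 3511), and on day 8 they were 4.42% (131 of 2965) and 2.40% (77 of 3212). Exact 95% Clopper-Pearson intervals of day 4, 6.84% to 8.97% and 8.16% to 10.1%, lay above those of every other library, and all such intervals cover counting error only. Before growth factors were removed, on day 0, 4 of 4331 Kmt2d+/βgeo cells (0.0924%) and 27 of 4857 wild-type cells (0.556%) met the same rule. At a value of at least 1.5 the order turned. The day 8 Kmt2d+/βgeo library, the shallowest, then stood highest, at 2.97% against 2.41% and 2.34% on day 4.

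Day 4 also stood highest at equal depth. After every cell had been thinned to 3000 UMIs, a Rbfox3 UMI remained in 1.27% and 1.61% of cells on day 2, in 5.05% and 5.61% on day 4 and in 3.27% and 1.47% on day 8, Kmt2d+/βgeo first. Thinning left out 765 cells, 36 of them Rbfox3 cells, from the day 8 Kmt2d+/βgeo library, the shallowest with a median of 3972 UMIs, 4 from the day 8 wild-type library and 23 from the day 0 Kmt2d+/βgeo library. Dividing cells of day 0, with a log2 value of Top2a (a topoisomerase of cycling cells) of at least 1, should lack NeuN, and 0.214% and 0.459% of them had a Rbfox3 UMI at the same thinned depth. Their unthinned medians were 13794 and 11870 UMIs. All cells of day 0 had 0.209% and 0.474%, much the same. The interval of each day 2, day 4 and day 8 library lay above these values, the lowest bound being 0.971% on day 2, but free Rbfox3 RNA in the later libraries was not measured by cells of day 0.

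**Figure D1:**
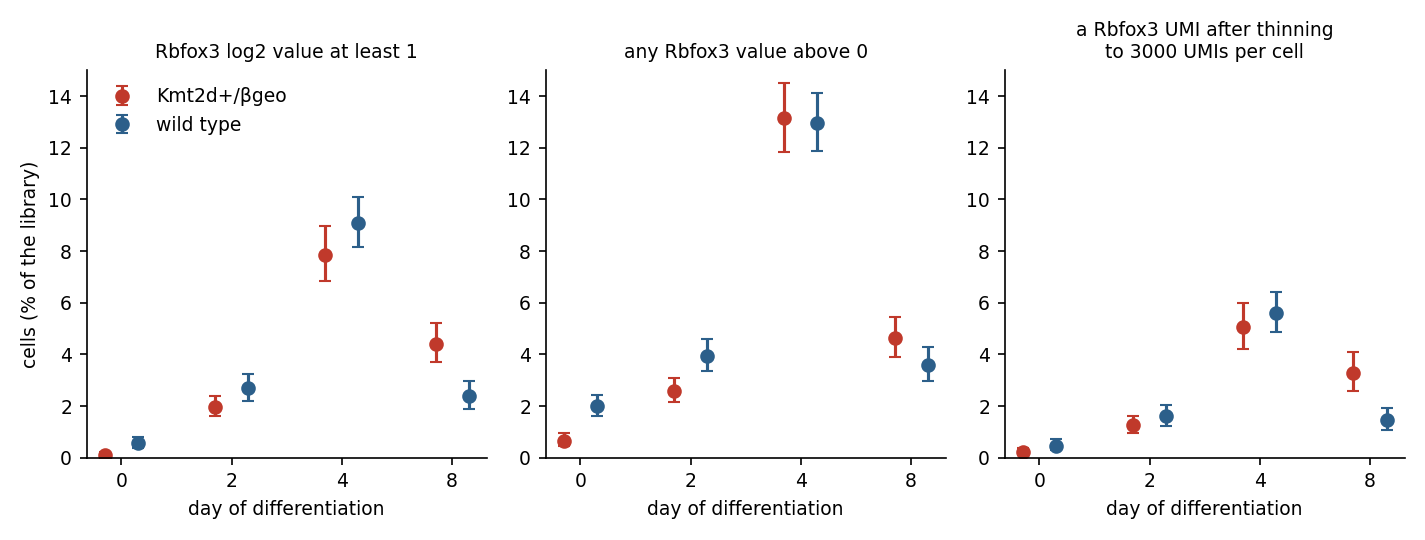
Share of cells in each of the 8 libraries by day of differentiation, in percent, for Rbfox3 at a log2 value of at least 1 (left), for any value above 0 (middle) and for a Rbfox3 UMI after thinning to 3000 UMIs per cell (right). Points are libraries, red for Kmt2d+/βgeo and blue for wild type, and bars are exact 95% intervals of counting error. Both day 4 libraries stand highest in each panel, from 5.05% in the thinned cells to 13.1% for any value.

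Between the genotype labels the shares differed in opposite directions on different days. The Kmt2d+/βgeo share minus the wild-type share was -0.70 percentage points on day 2 (95% Newcombe interval -1.35 to -0.08), -1.23 on day 4 (-2.63 to 0.20) and 2.02 on day 8 (1.12 to 2.95). In thinned cells the day 2 difference was -0.35 points with an interval of -0.86 to 0.15, and the day 8 difference was 1.81 points (0.99 to 2.71). When at least 2 Rbfox3 UMIs were asked for, the day 8 shares were 0.270% and 0.374%, a difference of -0.10 points with an interval of -0.41 to 0.20. The day 4 difference was then 0.78 points (-0.03 to 1.64). For any value above 0 it was 0.18 points on day 4 (-1.52 to 1.92) and 1.04 on day 8 (0.05 to 2.05), so the day 4 sign depended on the rule. With 1 library per label and day none of these could be tested, and the day 8 Kmt2d+/βgeo library also had the lowest depth.

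Across the transcriptome, Rbfox3 cells carried more RNA of Draxin, Chd7, Lingo1, Smoc1 and Olig2, among others, and less RNA of astrocyte genes. Of 7429 genes tested, 950 (12.8%) differed from Rbfox3-zero cells at an adjusted p under 0.05 (limma on log2 of the mean normalised count plus 0.1, with the library as a block and Benjamini-Hochberg adjustment). There were 487 higher genes (6.56%) and 463 lower genes (6.23%), and the median difference of all genes was 0.02. The depth-standardised comparison called 566 genes (7.62%), 268 higher (3.61%) and 298 lower (4.01%). All 950 kept their sign, and 565 of them were also called after standardisation. Differences were small: 144 of the 950 genes reached 0.5 on the log2 scale, 52 higher and 92 lower. A single sign in 6 of 6 libraries was found for 691 of the 950 genes and for 16.3% of all genes tested. Of the differences, 5 reached 1, namely Draxin, Igfbp2, Hopx, Slc4a4 and Slc1a2. The 6 libraries are 3 days under each of 2 labels, so the p-values measure the spread between days and labels and not between separate animals. Without the day 4 Kmt2d+/βgeo, the day 4 wild-type or the day 2 wild-type library 521, 571 or 567 genes were called, and 185 without both day 4 libraries (153 with depth standardised as well), a comparison that rests on 4 libraries.

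Draxin, a secreted repulsive guidance cue for growing axons, showed the largest positive difference. Its mean normalised count per cell was 1.08 in Rbfox3 cells against 0.488 in Rbfox3-zero cells in the day 2 Kmt2d+/βgeo library, and 1.39 against 0.608 in the day 2 wild-type library. On day 4 the values were 2.23 against 1.18 and 2.54 against 1.1, and on day 8 they were 1.37 against 0.741 and 1.22 against 0.407. Rbfox3 cells were higher in every library, although levels of both classes overlapped across days. The mean difference was 1.05 ± 0.07 (log2, SE, n = 6; limma adjusted p = 5.04e-07), and 0.83 after depth standardisation.

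A further 3 genes were higher by nearly the same amount in each library. For Chd7, a chromatin remodeller of neural progenitors, the within-library differences ran from 0.72 to 0.92 with a mean of 0.84 ± 0.05 (SE). Lingo1, a transmembrane protein that limits axon outgrowth and myelination, had differences of 0.75 to 0.92 and a mean of 0.82 ± 0.05. Smoc1, a secreted calcium-binding matrix protein, had differences of 0.64 to 0.95 and a mean of 0.80 ± 0.05. All of them were called with depth standardised, at 0.62, 0.66 and 0.61.

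Olig2, a basic helix-loop-helix factor of oligodendrocyte precursors and of cultured neural progenitors, was more abundant in Rbfox3 cells on days 2 and 4. Its normalised counts were 10.3 against 4.64 and 9.74 against 6.28 on day 2, and 4.33 against 2.17 and 3.72 against 2.02 on day 4, Kmt2d+/βgeo first. On day 8 they were 1.77 against 0.886 in the wild-type library and 1.56 against 1.48 in the Kmt2d+/βgeo library. Thus 5 libraries differed by 0.63 to 1.13 on the log2 scale and the shallowest by 0.07. The mean was 0.76 ± 0.10 (SE, n = 6; limma adjusted p = 1.79e-04), or 0.48 with depth standardised.

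The remaining leading genes on the higher side had varied roles. Ncald, a neuronal calcium sensor, was higher by 0.76, Rcan2, a regulator of calcineurin, by 0.73, and the small GTPase Gem by 0.74. Megf11, a receptor with EGF-like repeats, was higher by 0.78 and Elfn1, an organiser of synapses, by 0.77, but their differences spanned 0.04 to 1.47 and 0.14 to 1.53 between libraries. Tmem132b was higher by 0.74, and Rnaseh2b, a subunit of ribonuclease H2, by 0.72. Each was higher in 6 of 6 libraries and stayed called with depth standardised. All 24 genes named as leading, 12 in each direction, were also called when any 1 library was left out. They had been picked for large called differences with 1 sign in 6 of 6 of these libraries, which favours that outcome. Of all 70 named genes called, 46 kept their calls.

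**Figure D2:**
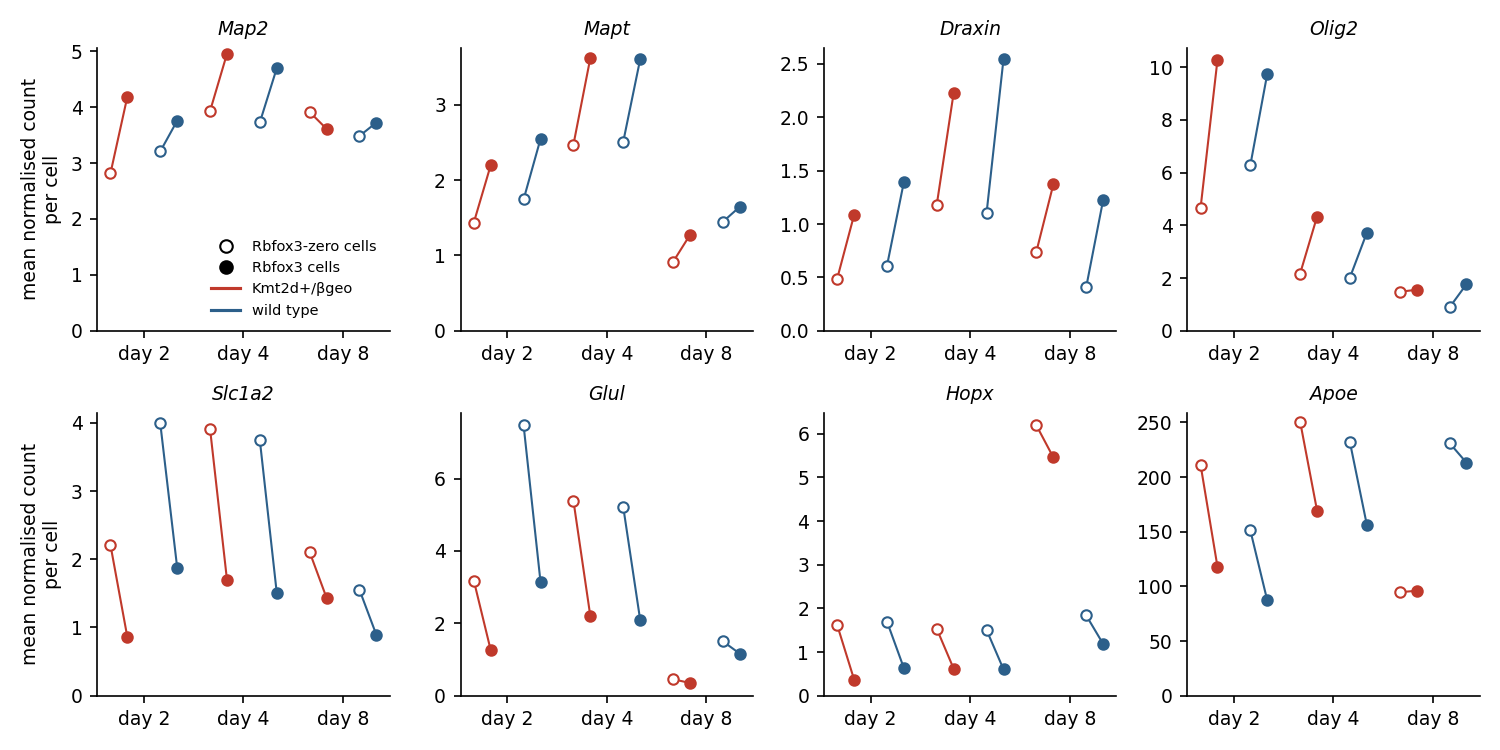
Mean normalised count per cell (linear axis from 0) of 8 genes in Rbfox3-zero cells (open circles) and Rbfox3 cells (filled circles) of each library, joined by a line, on days 2, 4 and 8, red for Kmt2d+/βgeo and blue for wild type. Draxin climbs in all 6 libraries and Slc1a2, Glul and Hopx drop in all 6, while Map2 drops and Apoe is nearly level in the day 8 Kmt2d+/βgeo library.

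The neuron markers were mostly higher, by modest amounts. Of the 9 tested besides Rbfox3, 6 were called higher and 0 lower, where 6.56% of all genes tested were higher, with a median difference of 0.35 against 0.02 for all genes. After depth standardisation 4 of the 9 were called, where 3.61% of all genes were higher, with a median of 0.30.

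Mapt, the microtubule-associated protein tau of axons, was the steadiest of them. It had 2.20 normalised counts per Rbfox3 cell against 1.44 per Rbfox3-zero cell and 2.55 against 1.74 on day 2, 3.62 against 2.47 and 3.6 against 2.51 on day 4, and 1.27 against 0.913 and 1.65 against 1.45 on day 8, Kmt2d+/βgeo first. The mean difference was 0.46 ± 0.06 (log2, SE; limma adjusted p = 1.57e-04) and 0.34 with depth standardised. Tau was thus higher in 6 of 6 libraries, least so in the day 8 wild-type library, at 0.18.

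Nsg2, a membrane protein of neuronal endosomes, was higher by 0.54 ± 0.09, with the largest differences on day 2 (0.95 and 0.78) and the smallest on day 8 (0.11 and 0.21). Syn2, a synaptic vesicle phosphoprotein, had 0.15 and 0.32 on day 2, 0.44 and 0.67 on day 4 and 0.40 and 0.84 on day 8, and a mean of 0.47 ± 0.08. Dpysl3, a cytosolic protein of growth cones, was higher by 0.35 ± 0.09 although it was lower, by 0.21, in the day 8 Kmt2d+/βgeo library. These 3 and Mapt were the ones still called with depth standardised, but Dpysl3 was not called in cells thinned to 3000 UMIs (0.30; limma adjusted p = 0.109) or without the day 2 wild-type or the day 4 Kmt2d+/βgeo library. Without both day 4 libraries Mapt (0.43) and Nsg2 (0.51) kept their calls, and Syn2 (0.43; limma adjusted p = 0.0706) and Dpysl3 (0.25; adjusted p = 0.241) did not. In cells with at least 2 Rbfox3 UMIs the difference was 0.31 for Mapt (limma adjusted p = 0.576), 0.20 for Nsg2 (0.732), 0.12 for Dpysl3 (0.894) and 0.72 for Syn2 (0.0487). There were only 8 to 78 such cells per library, so a lost call there decides little. The differences themselves were also smaller for Mapt, Nsg2 and Dpysl3 and larger for Syn2, and the cause was not tested.

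Map2, the dendritic microtubule-associated protein given with Rbfox3 as a marker of these cells, separated them weakly. Its normalised counts were 4.19 against 2.82 and 3.76 against 3.21 on day 2, 4.96 against 3.93 and 4.70 against 3.73 on day 4, and 3.61 against 3.91 and 3.73 against 3.49 on day 8, Kmt2d+/βgeo first. Its mean difference of 0.24 ± 0.07 (SE, n = 6) was positive in 5 of 6 libraries and had a limma adjusted p of 0.0315, or 0.0679 with depth standardised. In thinned cells a Map2 UMI was found in 51.6% to 77.1% of Rbfox3 cells and in 54.5% to 67.7% of Rbfox3-zero cells, so the gene was widespread in both classes. Its call was also lost when any 1 of the libraries of days 2 and 4 was left out. Stmn3, a tubulin-binding stathmin, behaved alike: 0.46 ± 0.12, with an adjusted p of 0.0169 in limma that became 0.0595 with depth standardised, and lower by 0.41 in the day 8 Kmt2d+/βgeo library. Without the day 2 wild-type or the day 4 Kmt2d+/βgeo library Stmn3 was not called. In the few cells with at least 2 Rbfox3 UMIs Map2 differed by 0.10 (limma adjusted p = 0.820) and Stmn3 by -0.33 (0.786).

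Of the 9 neuron markers, 3 were not called. Ank3, the ankyrin of the axon initial segment, differed by -0.24 (limma adjusted p = 0.184), the growth-cone protein gene Gap43 by 0.17 (adjusted p = 0.509) and Tagln3 by -0.08 (adjusted p = 0.613). Their signs were mixed over the libraries, and Rbfox3 cells had at most 0.182 normalised counts of Ank3 in any library.

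The markers of neuronal subtypes that could be tested were few. Prox1, the granule neuron factor, had 0.277 to 0.598 normalised counts per Rbfox3 cell and 0.215 to 0.318 per Rbfox3-zero cell, and was higher by 0.52 ± 0.11 (SE, n = 6; limma adjusted p = 0.00447), or 0.40 with depth standardised. In the day 8 Kmt2d+/βgeo library the Prox1 difference was 0.01. Prox1 was not called without both day 4 libraries (0.49; limma adjusted p = 0.0996), with Rbfox3 at least 1.5 (0.69; adjusted p = 0.0582) or with at least 2 Rbfox3 UMIs (0.84; adjusted p = 0.107). Gad1, the GABA-synthesising enzyme, differed by 0.01 with an adjusted p of 0.96 in limma, and a Gad1 UMI was present in 1.05% to 10.3% of thinned Rbfox3 cells and in 2.14% to 5.92% of Rbfox3-zero cells.

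Transcription factors with roles in neurogenesis tended to be higher as well. Tcf4 and Tcf12, broadly expressed partners of proneural factors, were higher by 0.27 and 0.37 in 6 of 6 libraries. Myt1, a zinc-finger factor of differentiating neurons, was higher by 0.46 and Klf7 by 0.24, but both lost their call with depth standardised (limma adjusted p = 0.226 and 0.135). Rest, the repressor of neuronal genes, differed by 0.11 and was not called (limma adjusted p = 0.328). Klf7 also lost its call without any 1 library other than that of day 8 Kmt2d+/βgeo, and Myt1 without either library of day 2 or without that of day 4 Kmt2d+/βgeo. The list thus held 4 higher genes of 5 tested, or 2 after standardisation, with medians of 0.27 and 0.18, where 6.56% and 3.61% of all genes tested were higher. It named 23 genes, and the 5 were those in the matrix.

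**Figure D3:**
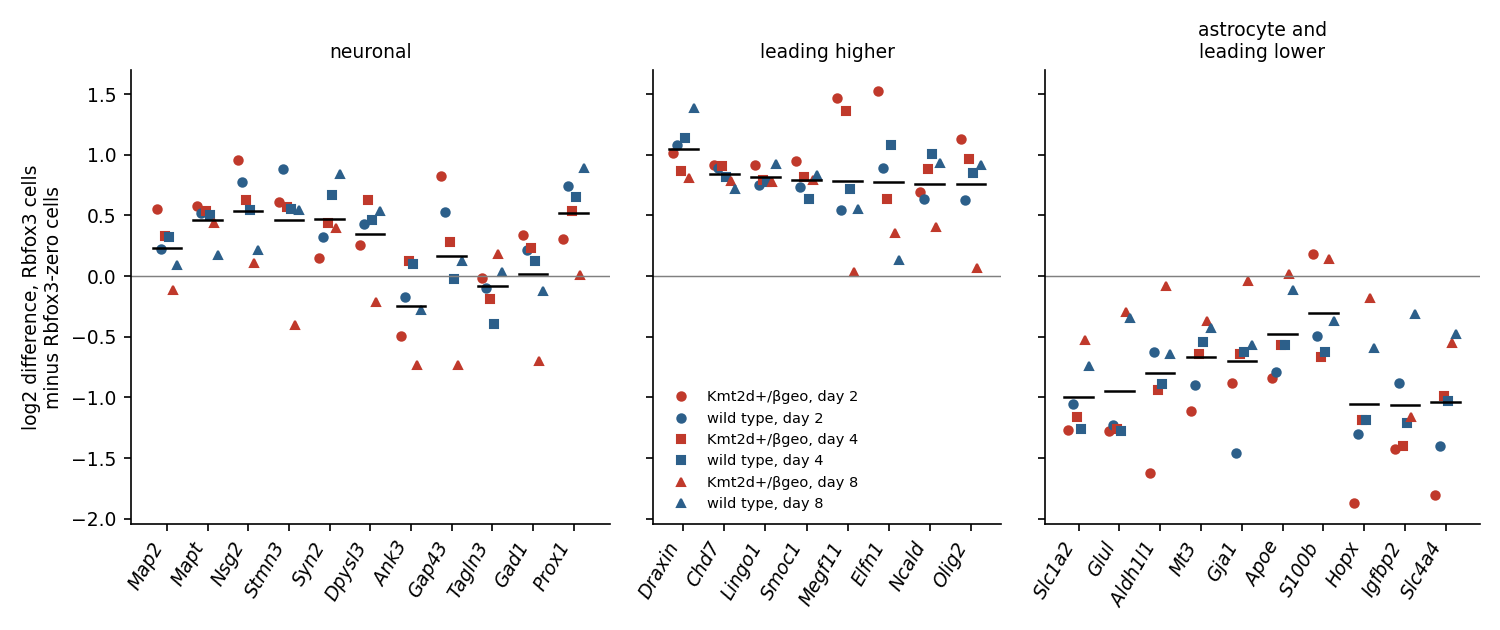
Within-library log2 difference of the mean normalised count (plus 0.1) between Rbfox3 cells and Rbfox3-zero cells for neuron and subtype markers, for the leading higher genes and for astrocyte markers with the leading lower genes. Circles, squares and triangles are days 2, 4 and 8, red is Kmt2d+/βgeo, blue is wild type, and black lines are means of 6 libraries. Mapt, Nsg2 and Syn2 lie above 0 throughout, and the red triangles of day 8 Kmt2d+/βgeo often lie nearest to 0 or on the other side of it.

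Synaptic and membrane genes did not share a direction. Of all genes tested 6.56% were higher and 6.23% lower, or 3.61% and 4.01% with depth standardised, and each count here stands beside these shares. Among 9 presynaptic genes tested, 2 were higher, Syn2 and the synaptotagmin Syt11 (0.18), and 0 were lower, and both were also called with depth standardised. Of 16 postsynaptic and receptor genes, 0 were higher and 6 were lower: the GABA receptor subunits Gabrb1 (-0.93) and Gabra2 (-0.40), the glutamate receptor genes Grm5 (-0.78), Gria3 (-0.51) and Gria4 (-0.33), and the scaffold Dlgap1 (-0.43). Gabra2 alone of these was no longer called with depth standardised (limma adjusted p = 0.0964). Leaving out 1 library ended the calls of Gria4 (day 2 wild type), of Gabra2 (any of days 2 and 4), of Dlgap1 (any but those labelled Kmt2d+/βgeo of days 2 and 8) and of Syt11 (any but those labelled Kmt2d+/βgeo of days 2 and 4). Of 8 ion channel genes, the sodium channel Scn8a was higher by 0.42 and the calcium channel Cacna1a by 0.32 (0.38 and 0.31 with depth standardised, both called), the latter not called without either day 4 library. Neither was called in thinned cells (limma adjusted p = 0.121 and 0.157). The 21 genes of axon growth and adhesion included 0 higher and 6 lower ones, with a median of -0.14, and 5 lower ones with a median of -0.12 after standardisation. Among 21 genes of the cytoskeleton and axonal transport 8 were higher, including Basp1 of growth cones by 0.55, and 3 were lower, the cytoskeletal linkers Dst and Macf1 and the tubulin Tubb2a. After standardisation 4 were still higher, Mapt, Basp1 and Dpysl3 among them, and 2 were lower, Macf1 and Tubb2a. Dst was not called without the day 2 Kmt2d+/βgeo library or without either day 4 library, nor Tubb2a without the day 4 Kmt2d+/βgeo library.

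Splicing regulators, the family of proteins to which the Rbfox3 product belongs, showed small differences. Of 16 tested, 4 were higher (6.56% of all genes were) and 0 lower, with a median of 0.11: Nova1 by 0.35, Khdrbs1 by 0.28, Ptbp2 by 0.27 and Elavl1 by 0.22. With depth standardised Khdrbs1 alone was called (limma adjusted p = 0.0289), 1 of 16 where 3.61% of all genes were higher, which is near that share. Without the day 2 wild-type library none of these 4 was called. Ptbp2 was also not called without any 1 of the other libraries of days 2 and 4, Nova1 without the day 4 wild-type library, and Elavl1 without either day 8 library or the Kmt2d+/βgeo library of day 2 or 4. Rbfox2, the paralogue expressed in many tissues, differed by 0.13 ± 0.13 (SE; limma adjusted p = 0.576).

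Astrocyte genes were lower almost throughout. Of 10 tested, 0 were higher and 9 were lower, before and after depth standardisation and without any 1 library, where 6.23% of all genes tested were lower, or 4.01% standardised. The median difference was -0.67, or -0.53 standardised. Slc1a2, the main glutamate transporter of astrocytes, had 0.857 normalised counts per Rbfox3 cell against 2.21 per Rbfox3-zero cell and 1.88 against 3.99 on day 2, 1.70 against 3.91 and 1.5 against 3.74 on day 4, and 1.43 against 2.11 and 0.891 against 1.55 on day 8, Kmt2d+/βgeo first. It was lower in each library, by 0.52 to 1.27 on the log2 scale, with a mean of -1.0 ± 0.09 (SE, n = 6; limma adjusted p = 5.93e-06), or -0.80 with depth standardised. In the deeper cells with Rbfox3 above 0 and under 1 its mean difference was 0.083 and was not called, so the result depended on the rule.

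Glul had 1.25 against 3.18 and 3.14 against 7.47 normalised counts on day 2, 2.20 against 5.39 and 2.10 against 5.22 on day 4, and 0.352 against 0.454 and 1.16 against 1.5 on day 8. Its mean difference was -0.95 ± 0.12 (SE), made up of values from -1.28 to -1.23 on days 2 and 4 and of -0.30 and -0.35 on day 8. Aldh1l1, a folate enzyme used as an astrocyte marker, differed by -0.80, the connexin Gja1 by -0.70, the transporter Slc1a3 by -0.66, the metallothionein Mt3 by -0.66 and the glial factor Sox9 by -0.40. Apoe was lower by 0.48 on average and Sparcl1 by 0.68. In the day 8 Kmt2d+/βgeo library both had the opposite sign, higher in Rbfox3 cells by 0.02 for Apoe (96.0 against 94.6 normalised counts) and by 0.20 for Sparcl1 (6.68 against 5.79). S100b, at -0.31, was the astrocyte gene that was not called (limma adjusted p = 0.0649).

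The leading genes on the lower side that were not in that list had varied roles. Igfbp2, a binding protein for insulin-like growth factors, differed by -1.07 ± 0.11 (SE) and Hopx, a homeodomain protein of quiescent neural stem cells, by -1.05 ± 0.15. Hopx had 0.369 to 0.630 normalised counts per Rbfox3 cell on days 2 and 4 against 1.51 to 1.70 per Rbfox3-zero cell. On day 8 it had 1.19 against 1.84 in wild type and 5.46 against 6.19 in Kmt2d+/βgeo cells. The sodium bicarbonate cotransporter Slc4a4 differed by -1.04, the sodium pump subunit Atp1b1 by -0.83, the pump-interacting Nkain4 by -0.83, carbonic anhydrase Car2 by -0.82, the AMPA receptor auxiliary subunit Shisa9 by -0.93 and the scaffold Akap12 by -0.81. All were lower in 6 of 6 libraries and remained called with depth standardised.

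Progenitor markers were split. Of 10 tested, Notch1 (0.26) and the EGF receptor gene Egfr (0.47) were higher in 6 of 6 libraries, and Hopx, the radial glia lipid-binding protein gene Fabp7 (-0.74), Pax6 (-0.31) and Id3 (-0.32) were lower in 6 of 6. Of all genes tested, 6.56% were higher and 6.23% lower. With depth standardised Notch1 (0.18), Egfr (0.38), Hopx (-0.89), Fabp7 (-0.62) and Id3 (-0.30) kept their calls, beside 3.61% of all genes higher and 4.01% lower. Pax6 lost its call with depth standardised (limma adjusted p = 0.0511) and without the day 4 wild-type library, and Notch1 without the day 4 Kmt2d+/βgeo library. The intermediate filament gene Vim and the receptor phosphatase gene Ptprz1 were not called, at -0.11 and -0.13. Besides Olig2, the oligodendrocyte lineage genes Bcas1 (0.35) and Cnp (0.24) were higher but were not called after standardisation (limma adjusted p = 0.332 and 0.0950) or without the day 2 wild-type library or either library of day 4. Of 11 listed genes of this lineage these 3 were the only ones in the matrix.

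Cell division was rare in both classes. Top2a had 0.0299 to 0.185 normalised counts per Rbfox3 cell and 0.056 to 0.146 per Rbfox3-zero cell, a difference of -0.35 that was not called (limma adjusted p = 0.0819) and that was -0.07 with depth standardised. Smc4, a condensin subunit, differed by -0.07. Cdkn1a, an inhibitor of cyclin-dependent kinases, was lower in Rbfox3 cells of 6 of 6 libraries, with a mean difference of -0.48, or -0.44 with depth standardised (called both ways). Of other cell types, the ciliary gene Dynlrb2 differed by -0.20 and was not called, and 0 of 11 listed vascular and fibroblast genes were in the matrix.

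**Figure D4:**
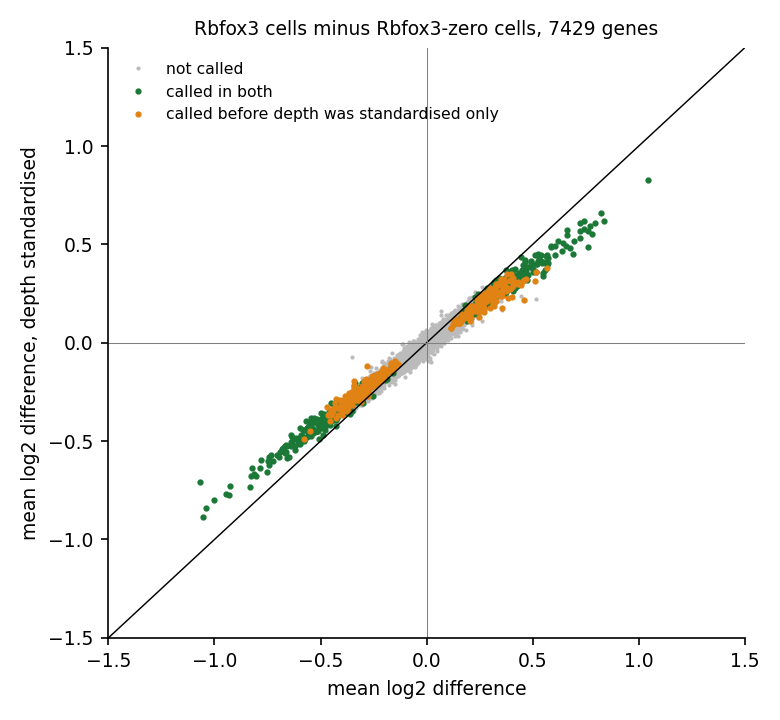
Mean log2 difference between Rbfox3 cells and Rbfox3-zero cells over 6 libraries for 7429 genes, without (x axis) and with (y axis) Rbfox3-zero cells standardised to the depth of the Rbfox3 cells. Green points are called at an adjusted p under 0.05 both ways, orange points before standardisation only, and the black line marks equality; the 950 called genes keep their sign and lie closer to 0 on the y axis.

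UMIs of Olig2 and Slc1a2 were also counted cell by cell, as a description. In cells thinned to 3000 UMIs, Olig2 was detected in 87.6% and 83.6% of Rbfox3 cells on day 2 against 54.2% and 64.7% of Rbfox3-zero cells, and in 47.7% and 48.0% on day 4 against 28.2% and 28.3%. On day 8 it was detected in 20% against 22.9% in the Kmt2d+/βgeo library and in 27.3% against 14.2% in the wild-type library. Slc1a2 was detected in 22.7% to 35.5% of Rbfox3 cells and in 35.9% to 57% of Rbfox3-zero cells, and was the less frequent in Rbfox3 cells of all 6 libraries.

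Read the other way, cells with Olig2 and without Slc1a2 had the highest Rbfox3 shares on days 2 and 4. On day 4, 9.09% (42 of 462) and 11.1% (73 of 658) of them had a Rbfox3 UMI, against 2.85% (31 of 1087) and 2.75% (42 of 1530) of cells with Slc1a2 and without Olig2, with exact intervals that did not overlap. The shares on day 2 were 2.08% and 2.43% against 0.276% and 0.584%, again with intervals apart. On day 8 the intervals overlapped, at 3.06% against 0.938% in wild type and 3.30% against 2.92% in the Kmt2d+/βgeo library, where cells with neither gene had the highest share, 3.74%. Cells with both genes had 6.12% and 5.85% on day 4 against 5.35% and 6.34% of cells with neither, and 1.61% and 1.84% on day 2 against 0.624% and 0.509%. Over the 6 libraries the Rbfox3 share was higher by 2.19 percentage points in cells with Olig2 than in cells without it and lower by 1.84 points in cells with Slc1a2, in 5 and 6 of the libraries, with an exact sign-flip permutation p of 0.0625 and 0.03125 (2-sided), or 0.141 for both after Benjamini-Hochberg adjustment over 9 genes compared. Of the other genes compared, Egfr went with a higher share by 1.32 points in 6 of 6 libraries (exact sign-flip permutation p = 0.03125), Mapt by 1.04 points in 4 of 6 (p = 0.125) and Map2 by 0.30 points in 4 of 6 (p = 0.688), and the remaining 4 had p from 0.0625 to 0.344. Since 0.03125 is the smallest p that 6 libraries allow, the 2 genes at that value cannot pass the adjustment, and the adjusted p says little either way. All 9 genes were compared in the same cells and through detection of Rbfox3, which the rule also used. Olig2 and Slc1a2 were named above for their differences, and Egfr was chosen after its values were seen. The shares and p-values of all 9 genes thus describe the cells and are no independent support for the differences above.

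**Figure D5:**
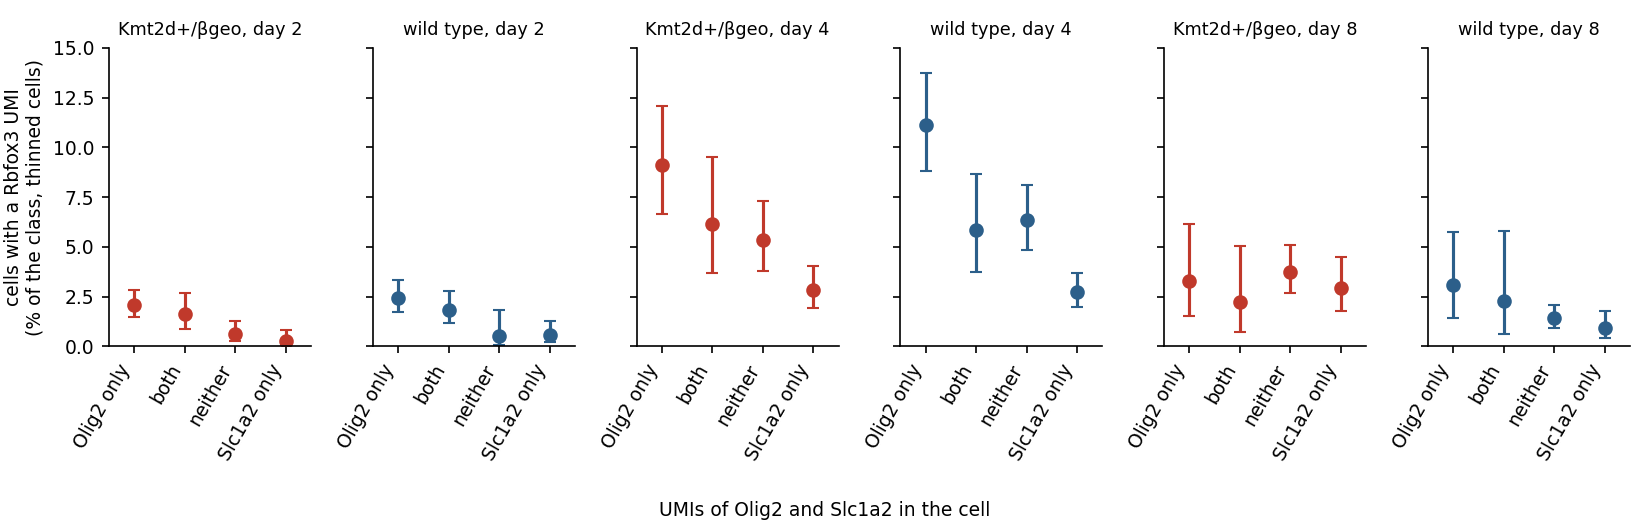
Percentage of cells with a Rbfox3 UMI among cells with UMIs of Olig2 only, of both genes, of neither, or of Slc1a2 only, in each of the 6 libraries, after thinning to 3000 UMIs per cell. Points are shares with exact 95% intervals of counting error, red for Kmt2d+/βgeo and blue for wild type. On day 4 the share is 9.09% and 11.1% with Olig2 only and 2.85% and 2.75% with Slc1a2 only, whereas the 4 classes of the day 8 Kmt2d+/βgeo library lie between 2.20% and 3.74%.

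The contrast was wider on day 2 than on day 8, above all for lower genes. Of the 463 lower genes, 242 (52.3%) had both day 2 differences below both day 8 differences, while 18.7% of all genes tested did. Of the 487 higher genes, 193 (39.6%) had both day 2 differences above both day 8 ones, against 24.0% of all genes. The median difference of the lower genes was -0.54 and -0.46 on day 2, -0.37 and -0.35 on day 4 and -0.22 and -0.27 on day 8, Kmt2d+/βgeo first. Median depth was 7299 to 7566 UMIs in the libraries of day 2, 6989 in the day 8 wild-type library and 3972 in the day 8 Kmt2d+/βgeo library. The log2 difference of median depth between Rbfox3 cells and Rbfox3-zero cells was -0.24 and -0.14 on day 2, Kmt2d+/βgeo first. It was -0.16 and -0.15 on day 4 and -0.05 and -0.11 on day 8. These values by day were not depth-standardised, and the part of depth in this order was not tested.

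A difference between the genotype labels in this contrast was not detected. The limma test of Kmt2d+/βgeo against wild-type differences, with 3 days per label, called 0 of 7429 genes, and 206 genes had an unadjusted p under 0.05. It did not pair the libraries by day, so the spread between days stayed in its error. With day as a term limma also called 0 genes, with 367 at an unadjusted p under 0.05. Kmt2d itself had 0.186 to 0.310 normalised counts per Rbfox3 cell and 0.170 to 0.294 per Rbfox3-zero cell, with ranges that overlapped between labels, and it did not differ between the classes at this threshold (0.10 ± 0.08, SE; limma adjusted p = 0.51). A 3′ tag count need not read the trapped part of the gene, so it does not check the genotype labels. Rbfox3-zero cells of both day 4 libraries differed by a median of 0.06 on the log2 scale over genes, against 0.12 on day 2 and 0.20 on day 8, and these libraries shared 2 cell barcodes. The day 4 libraries were thus the most alike of the 3 pairs. In Rbfox3-zero cells Tmem132b had 0.0257 against 0.302 normalised counts on day 2, Kmt2d+/βgeo first. It had 0.0696 against 0.411 on day 8 but 0.867 against 0.830 on day 4. Mt3 kept its order, at 34.5 against 65.9, 154 against 183 and, on day 4, 104 against 147. Both genes were picked after their values were seen. Whether the genotype label of the day 4 Kmt2d+/βgeo library is right was not tested. The labels do not say whether the 6 libraries are separate cultures, and the titles carry the same sample number for a genotype on every day. Without day 4 the genotype test again called 0 genes, with 167 at an unadjusted p under 0.05. Of the 28 pairs of libraries, the most any shared was 10, and no barcode was shared between Rbfox3 cells of the day 4 libraries.

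On day 0 the differences between cells with and without Rbfox3 were mixed. There, 29 Kmt2d+/βgeo and 97 wild-type cells had any value above 0, and these were compared with cells at 0 as values only. Of these cells, 25 and 70 lay under a value of 1, and their class had more UMIs than the cells at 0, with medians of 12445 against 11226 and 10576 against 9387. Since most of these cells lay under the rule and they were the deeper class, the day 0 values were not compared with those of the later days. Cells under a value of 1 gave a mean of -0.66 for Olig2 on the later days. That mean was set largely by the 6 such cells of the day 8 Kmt2d+/βgeo library, and the signs of the other libraries were mixed. Olig2, at 5.26 against 5.53 and 7.53 against 8.10 normalised counts, was no higher in cells with Rbfox3, Kmt2d+/βgeo first. Smoc1 had 0.493 against 0.534 and 1.01 against 0.810, and Basp1 had 6.86 against 5.01 and 3.57 against 3.65, so the labels differed in sign for both. Draxin, at 0.247 against 0.144 and 0.268 against 0.238, and Stmn3, at 0.990 against 0.501 and 0.823 against 0.732, were the higher in cells with Rbfox3 in both libraries. Slc1a2, at 0.321 against 0.499 and 0.584 against 0.723, and Hopx, at 0.208 against 0.437 and 0.206 against 0.227, were the lower in both.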

How the data were processed

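The 8 single-cell libraries were used, 6 of them (days 2, 4 and 8) for the comparison. The authors quantified reads with alevin of Salmon 1.3.0 on GRCm38, took spliced counts as expression, removed low-quality cells and doublets and filtered genes, and deposited log2 values normalised by library size for 9140 genes and 30408 cells, with coordinates of the genes. The cell table, also deposited, gives total UMIs per cell as the authors' estimated counts. Seurat 3.2.2, also in the submitters' processing notes, served in the study to integrate samples.

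Values were returned to normalised counts, and the commonest value of a cell was taken as 1 UMI (86.8% of nonzero values then fell within 0.01 of a whole number). Median depth per library on the matrix genes ran from 3972 to 11230 UMIs. For each library, class means were taken as log2(mean normalised count + 0.1) and tested over 7429 genes with a mean of at least 0.1, with limma 3.58.1 (trend, library as block, 2-sided, Benjamini-Hochberg) in R 4.3.3. Because the values are log2, no count model was fitted. Depth standardisation averaged Rbfox3-zero cells within quintiles of depth, weighted by the Rbfox3 cells, with the lowest and highest quintiles open-ended. Shares carry Clopper-Pearson intervals and differences of shares Newcombe intervals. The planned sign-flip test of depth is given as a description, since the rule uses depth. The script was tested on simulated data. No separate cultures or animals replicate a group, so p-values measure the spread between libraries.

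Genes could be named if they were neuron, subtype or splicing markers, among the 12 largest called differences in each direction with 1 sign in 6 of 6 libraries, among the 3 highest genes of each other list, or Kmt2d and Top2a. Not every such gene is named, and many of those left out, splicing genes among them, were not called. Other names were chosen after their values were seen: Basp1, Cacna1a, Dlgap1, Egfr, Gabra2, Gja1, Gria3, Gria4, Id3, Myt1, Notch1, Pax6, Rest, S100b, Scn8a, Slc1a3, Sox9, Dst, Kdm5b, Kdm6b and Macf1. The result of 1 listed gene is not reported here. The cells and the 21 gene lists were chosen with earlier results of these data known. Alternatives changed the scale, pseudocount, filter, depth handling, rule, comparison class, limma trend and libraries.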

Additional observations from a re-analysis of the deposited data

Results flagged for a closer look

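In 4 of the 84 sets of 6 within-library differences examined, 1 library lay apart from the other 5 by more than the 95% critical value of Dixon's test allows, and chance flags about 1 in 20 such sets. For Stmn3, the day 8 Kmt2d+/βgeo library gave -0.41 while the others gave 0.54 to 0.88. Klf7 gave -0.23 in the same library and 0.23 to 0.47 in the others. Mapt gave 0.18 in the day 8 wild-type library and 0.44 to 0.58 in the others. For Kmt2d, the day 2 wild-type library gave 0.33 and the others 0.00 to 0.08.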

How the results depend on the processing

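Most Rbfox3 cells rest on 1 UMI, 1 library stands for each genotype and day, and depth is tied to the rule, so depth and Rbfox3 level cannot be told apart fully; the cause of the changes below was not tested. Where the number of genes moved by over 1.5 times, higher and lower genes numbered 268 and 298 with depth standardised (254 and 278 over finer bins of depth, 62 and 91 without both day 4 libraries as well), 244 and 298 in thinned cells, 122 and 171 with Rbfox3 at least 1.5, and 78 and 107 without both day 4 libraries. With the limma trend off 302 were higher. At least 2 Rbfox3 UMIs, met by only 8 to 78 cells per library, gave 18 and 26 genes, or 6 and 13 with depth standardised. Leaving out 1 library gave 240 to 649 higher and 281 to 546 lower genes. The settings with 2 UMIs, finer bins and combined standardisation were chosen after seeing the data. Of all calls, 51.3% were higher, and 41.6% with Rbfox3 at least 1.5, 40.5% with depth standardised and day 4 left out, 40.9% with at least 2 UMIs and 31.6% when these were depth-standardised.

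Cells with Rbfox3 above 0 and under 1, which are 6 to 136 per library and deeper than the Rbfox3-zero cells, gave 0 higher and 0 lower genes by limma (220 at an unadjusted p under 0.05). There the sign turned for Mapt (-0.23), Stmn3 (-0.28), Syn2 (-0.40), Prox1 (-0.031), Nova1 (-0.55), Ptbp2 (-0.073), Elavl1 (-0.28), Olig2 (-0.66), Slc1a2 (0.083), Glul (0.00062), Egfr (-0.17), Bcas1 (-0.017), Cnp (-0.21), Tcf4 (-0.0038), Klf7 (-0.16), Scn8a (-0.15), Grm5 (0.0040), Dst (0.072), Kdm5b (-0.090) and Trp53 (-0.24). The day 8 Kmt2d+/βgeo library held only 6 such cells, with 0.164 normalised counts of Mapt against 0.913 in Rbfox3-zero cells and 0 of Syn2 against 0.577. On days 2 and 4 Mapt and Prox1 were higher in cells under 1 in every library, and Syn2 in all but day 2 wild type. The turned signs of Mapt, Syn2 and Prox1 thus rest largely on those 6 cells. That of Slc1a2 does not. Cells under 1 had more Slc1a2 than Rbfox3-zero cells on day 2, at 3.92 against 2.21 and 4.82 against 3.99 normalised counts, Kmt2d+/βgeo first. They also had more in the day 4 Kmt2d+/βgeo library, at 4.21 against 3.91. They had less in the day 4 wild-type library, at 3.40 against 3.74, and in both day 8 libraries. With at least 2 UMIs the sign turned for Stmn3 (-0.33, or -0.40 depth-standardised), Bcas1 (-0.25 and -0.33) and Trp53 (-0.0657 and -0.10), and depth-standardised also for Klf7 (-0.051) and Basp1 (-0.0033).

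Of the 70 named genes called, 46 were called whichever 1 library was left out, 65 on the mean of deposited log2 values, 67 and 70 with pseudocounts of 0.01 and 1, 55 with depth standardised, 50 in thinned cells, 40 with Rbfox3 at least 1.5, 34 without both day 4 libraries, 16 with at least 2 UMIs and 9 when these were depth-standardised. The genotype test called 0 genes without day 4, with day as a term and on mean log2 values (167, 367 and 181 at an unadjusted p under 0.05).

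Shares of cells moved with the rule. Any value above 0 gave 0.670% and 2.00% on day 0, 2.59% and 3.95% on day 2, 13.1% and 13.0% on day 4 and 3.58% in wild type on day 8, Kmt2d+/βgeo first. At least 1.5 gave 0.0231% and 0.103%, 0.367% and 0.415%, 2.41% and 2.34%, and 2.97% and 0.529% on days 0, 2, 4 and 8. Thinned shares were 1.27% and 1.61%, 5.05% and 5.61%, and 3.27% and 1.47% on days 2, 4 and 8. The depth difference, given without a test, was -0.058 for any value above 0 and -0.16 to -0.12 leaving out 1 library.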

Other observations

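The counts of 4 further short lists are set beside the 12.8% of all genes tested that were called in either direction, or 7.62% with depth standardised. Of 12 histone H3K4 methyltransferase and demethylase genes tested, the demethylase genes Kdm1a (0.27), Kdm5b (0.25) and Kdm6b (0.25), the last acting on another histone site, were higher and 0 were lower. Kdm1a alone, 1 of 12 and so near the share of all genes, was also called with depth standardised, and Kdm5b and Kdm6b were not called without any 1 of the libraries of days 2 and 4. Of 7 stress and apoptosis genes, Trp53 was the 1 called, again near that share. It was higher by 0.32, in 5 of 6 libraries, and kept its call with depth standardised (limma adjusted p = 0.0426), though not without the day 2 or the day 4 library labelled Kmt2d+/βgeo. Among 7 genes of cell cycle exit, the cyclin gene Ccnd2 was lower by 0.28 besides Cdkn1a, and it was not called with depth standardised (limma adjusted p = 0.315) or without any 1 library of days 2 and 4. Neither of 2 activity-induced early genes was called, with a median of 0.08 against 0.02 for all genes tested.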
